A study of Homo sapiens with 4 samples.

Results

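The genes described are those of the gamma-tubulin ring complex, read from RNA sequencing of MDA-MB-231, a long-established human line from a breast cancer. They are 10 of the 25133 rows with a gene symbol: MZT1, MZT2A, MZT2B, TUBG1, TUBGCP2, TUBGCP3, TUBGCP4, TUBGCP5, TUBGCP6 and NEDD1. The list was chosen by one measured value, the rise of MZT1 in the comparison of shJARID2 with shSCR, and was filled with the subunits of the complex to which MZT1 belongs. For this reason the changes of these genes in that comparison are given as a description, without p-values.

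All 4 libraries came from cells infected with lentivirus. The 2 shSCR libraries (genotype WT in the labels) carried a scrambled short hairpin, and the 2 shJARID2 libraries carried a hairpin against JARID2, an accessory subunit of Polycomb repressive complex 2. Time after infection, the number of hairpins and whether cells were cloned are not given in the labels. Values are FPKM (fragments counted per kilobase of exon length, scaled for library size). Levels of different genes are set side by side per annotated exon length, which need not be the length of the transcripts present. The GC trend described below also bears on ratios between genes. Log2 fold changes are shJARID2 over shSCR of log2(FPKM + 1), a scale that understates how far low genes changed. Whether replicates were separate cultures is not in the labels, so a p-value here reflects no more than the spread from library to library.

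JARID2 was at 10.8 FPKM in both shSCR libraries and at 3.88 and 3.91 in shJARID2, so the targeted transcript was lower in both libraries labelled shJARID2. Depth was about 15500000 and 16200000 counted reads in shSCR and 13000000 and 12800000 in shJARID2. Markers of the cell line were high except one: CD44, EGFR, CAV1 and AXL lay between 53.4 and 417 FPKM in every library, whereas VIM (vimentin), which this line is known to express strongly, was at 3.54 and 4.2 in shSCR and at 2.10 and 2.77 in shJARID2. That level goes against what is known of the line, 24.4% of the exon bases of VIM are also exons of other genes, and the cause was not tested. ESR1, PGR, GATA3 and CDH1, which the line lacks, did not exceed 0.451 FPKM, and 3 fibroblast and 3 leukocyte markers together summed to at most 0.842 and 0.167.

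The ring complex is the template from which microtubules grow. Gamma-tubulin molecules are held side by side in a ring by the gamma-tubulin complex proteins (GCPs), and the ring is brought to centrosomes and to spindle microtubules by targeting factors. MZT1 and the MZT2 proteins are very small subunits that bind the N-terminal parts of GCPs, and MZT1 is needed for the ring to be assembled or recruited in many organisms. In dividing cells, cancer cells included, the complex is known for building the mitotic spindle.

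MZT1 occupies bases 72708357 to 72727687 of chromosome 13 (GRCh38, - strand) and has 1 transcript in GENCODE release 29. Its coding sequence is 246 bases without the stop codon, in 3 coding exons, within 2299 exon bases, and is printed whole because this gene has the largest change and because it shows how short the open reading frame is (capitals mark the start codon).
MZT1: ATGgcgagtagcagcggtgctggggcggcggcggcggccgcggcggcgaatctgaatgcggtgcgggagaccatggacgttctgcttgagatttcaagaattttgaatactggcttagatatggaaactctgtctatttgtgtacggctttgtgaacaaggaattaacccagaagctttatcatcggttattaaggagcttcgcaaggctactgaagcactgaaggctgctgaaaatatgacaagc
The GC content of this coding sequence is 50.4%, against 32.0% for the whole transcript, so the untranslated parts are far poorer in G and C than the coding part. The pseudogenes MZT1P1 and MZT1P2 align to the transcript over 276 and 206 alignment columns with 84.8% and 77.2% identity. Reads that match both MZT1 and a pseudogene may have been assigned to either, since the rule for them is not given in the sources used here.

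Both MZT2 genes are on chromosome 2, MZT2A at 131464900 to 131492743 (- strand) and MZT2B at 130181737 to 130190729 (+ strand). Their coding sequences of 474 bases differ at 10 bases (97.9% identity), and the longest identical run is 175 bases. The last coding exon of each, bases 320 to 474, holds 7 of the 10 differences and is shown because reads between the differences cannot be assigned to either gene (capitals mark the bases that differ).
MZT2A: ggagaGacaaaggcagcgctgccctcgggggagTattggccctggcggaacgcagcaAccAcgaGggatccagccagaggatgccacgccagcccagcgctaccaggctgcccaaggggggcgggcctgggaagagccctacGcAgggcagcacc
MZT2B: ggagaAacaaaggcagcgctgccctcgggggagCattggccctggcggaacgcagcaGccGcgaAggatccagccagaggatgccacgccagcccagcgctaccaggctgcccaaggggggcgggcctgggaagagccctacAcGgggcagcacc
Reads that lie between the differences may have been counted for either gene or for neither, so the split of reads between both genes is uncertain.

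MZT1 was the member with by far the greatest difference. In shSCR it measured 6.96 FPKM in replicate 1 and 6.69 in replicate 2, and in shJARID2 it measured 36.5 and 28.8. Both shJARID2 libraries were above both shSCR libraries. In reads, read from the FPKM steps, these values were 248 and 249 in shSCR and 1086 and 847 in shJARID2. The means were 6.83 ± 0.190 and 32.6 ± 5.45 FPKM (SD, n = 2), a ratio of 4.78 and a log2 fold change of 2.09 (SE 0.12). In order of log2 fold change MZT1 stood at place 20 of the 12455 genes tested. In bulk RNA, more transcript per cell and more cells that express the gene cannot be told apart. Exons of other GENCODE genes cover none of its exon bases.

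**Figure D1:**
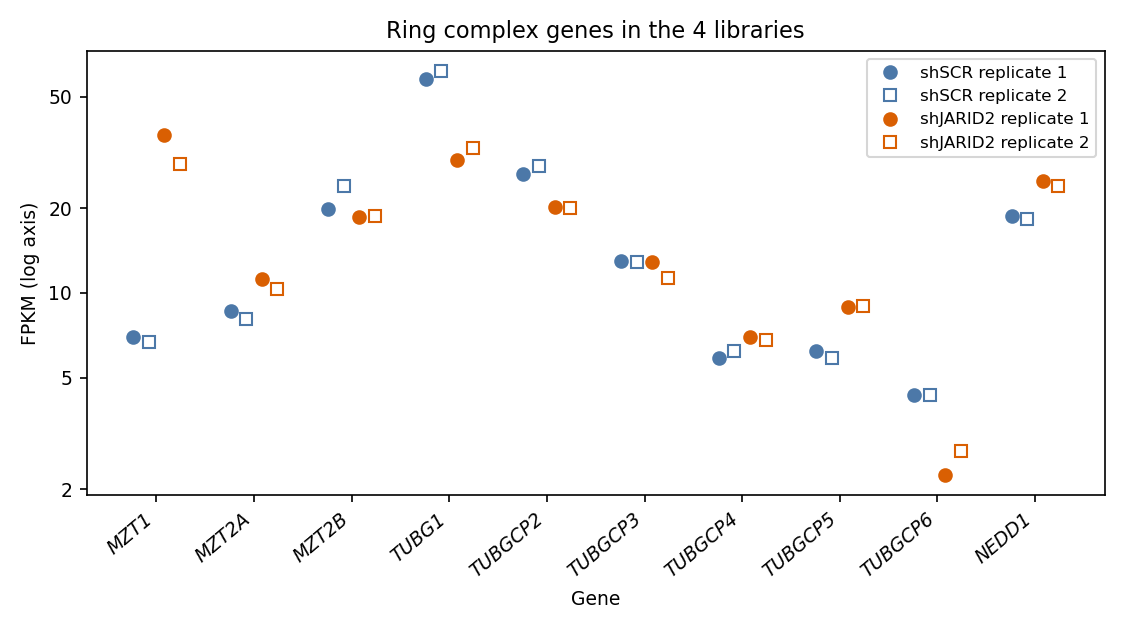
FPKM (log axis) of the 10 ring complex genes in the 4 libraries, with shSCR in blue, shJARID2 in orange, circles for replicate 1 and squares for replicate 2. MZT1 moves from 6.69 to 6.96 FPKM in shSCR to 28.8 to 36.5 in shJARID2, while TUBG1 moves from 57.9 to 61.7 down to 29.6 to 32.8.

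The other small subunits differed less. MZT2A, which is known to bind the GCP2 subunit as MZT2B does, measured 8.61 and 8.11 FPKM in shSCR against 11.2 and 10.3 in shJARID2, a log2 fold change of 0.33 (SE 0.068). MZT2B measured 19.8 and 24.03 FPKM in shSCR against 18.6 and 18.8 in shJARID2, a log2 fold change of -0.21 (SE 0.099). The libraries of the groups did not overlap for either gene, but shSCR replicate 1 of MZT2B lay close to the shJARID2 libraries. MZT2A had 546 and 537 reads in shSCR and 592 and 541 in shJARID2, and MZT2B had 558 and 706 and then 437 and 438. Together the pair had 1104 and 1243 reads in shSCR and 1029 and 979 in shJARID2. These reads are not scaled for depth, which was about 15500000 and 16200000 in shSCR against 13000000 and 12800000 in shJARID2. The smaller sums in shJARID2 are therefore not by themselves a lower level of the pair. The share of MZT2A went from 49.5% and 43.2% to 57.5% and 55.3%. Exons of other genes cover 44.9% of the exon bases of MZT2B, and the use of strand in counting is not given, which makes its level uncertain as well.

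TUBG1 encodes the main gamma-tubulin and was the highest of the 10 genes in both shSCR libraries. It measured 57.9 and 61.7 FPKM in shSCR against 29.6 and 32.8 in shJARID2. Both shJARID2 libraries were at about the same lower level, and the means of 59.8 ± 2.64 and 31.2 ± 2.23 FPKM (SD, n = 2) had a ratio of 0.522. The log2 fold change was -0.92 (SE 0.068). TUBG2, the paralog that is known to be most abundant in brain and is no member of the list, went from 11.3 and 12.7 to 7.13 and 6.82 FPKM (log2 fold change -0.70, SE 0.078, limma with a Benjamini-Hochberg adjusted p = 0.0029). The coding sequences of TUBG1 and TUBG2 have 94.7% of 1353 bases in common, with identical runs of up to 215 bases, so part of the reads of each gene may belong to the other.

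TUBGCP2 and TUBGCP3 encode the pair of GCPs that form the small complex with gamma-tubulin, from which most of the ring is built. TUBGCP2 measured 26.5 and 28.3 FPKM in shSCR against 20.2 and 20.03 in shJARID2, a log2 fold change of -0.43 (SE 0.052). TUBGCP3 measured 13.0 and 12.9 FPKM in shSCR against 12.9 and 11.3 in shJARID2, a log2 fold change of -0.10 (SE 0.077). The shSCR and shJARID2 libraries of TUBGCP2 were clearly apart, whereas those of TUBGCP3 nearly touched.

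TUBGCP4, TUBGCP5 and TUBGCP6 encode the GCPs that are built into the ring beside that pair. TUBGCP4 measured 5.88 and 6.24 FPKM in shSCR against 6.96 and 6.78 in shJARID2 (log2 fold change 0.16, SE 0.066), and 34.3% of its exon bases are also exons of other genes. TUBGCP5 measured 6.23 and 5.87 FPKM in shSCR against 8.89 and 9.01 in shJARID2 (log2 fold change 0.50, SE 0.062). TUBGCP6, the largest of them, measured 4.33 and 4.32 FPKM in shSCR against 2.25 and 2.73 in shJARID2 (log2 fold change -0.61, SE 0.10). TUBGCP5 was thus higher and TUBGCP6 lower in both shJARID2 libraries. NEDD1, the factor that carries the ring to centrosomes and spindles, measured 18.8 and 18.3 FPKM in shSCR against 25.1 and 24.03 in shJARID2 (log2 fold change 0.39, SE 0.048).

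Of the 10 genes, 4 passed the test of the whole table as higher (MZT1, MZT2A, TUBGCP5 and NEDD1), 3 as lower (TUBG1, TUBGCP2 and TUBGCP6) and 3 did not pass (MZT2B, TUBGCP3 and TUBGCP4). Over all genes tested, 28% passed as higher and 31.6% as lower, 59.7% in all, and the median log2 fold change was -0.018 against 0.031 over the 10. The groups did not overlap for any of the 10, as was the case for 82.9% of all genes tested. Since MZT1 chose the list, nothing is read from these counts. The call of MZT2A was lost without shSCR replicate 1 (log2 fold change 0.37), without shSCR replicate 2 (0.29) and without shJARID2 replicate 1 (0.28), and that of TUBGCP6 without shSCR replicate 1 (-0.61) or 2 (-0.61). MZT2B became a call without shSCR replicate 1 (-0.34).

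MZT1 was compared with its partners in each library. Per length, the MZT1 transcript was at 0.537 and 0.517 of the median of the other 9 genes in shSCR, and at 2.84 and 2.55 times that median in shJARID2. The partner median itself was 13.0 and 12.9 FPKM in shSCR against 12.9 and 11.3 in shJARID2. In every library it was the value of TUBGCP3, the middle gene of the 9, whose exon length did not give whole reads. These figures thus set MZT1 against a single gene and do not describe all partners, whose ratios differ and follow below. The difference in log2(FPKM + 1) between MZT1 and the partner median was 2.19 higher in shJARID2 than in shSCR, where the pooled SD between replicates was 0.082. With 2 libraries against 2 an exact permutation test, two-sided, cannot give a p below 0.333, and none was run.

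Against gamma-tubulin the shift was larger. The ratio of MZT1 to TUBG1 was 0.120 and 0.108 in shSCR and 1.23 and 0.878 in shJARID2. In shSCR, TUBG1 was the highest of the 10 genes and MZT1 the seventh. In shJARID2, MZT1 was the highest in replicate 1 and second to TUBG1 in replicate 2. Of the 9 ratios, that of MZT1 over TUBGCP5 shifted least, from 1.12 and 1.14 to 4.10 and 3.20. The ratio over NEDD1 went from 0.370 and 0.365 to 1.45 and 1.20, and that over MZT2A from 0.809 and 0.826 to 3.27 and 2.79. TUBGCP6 was the lowest of the 10 genes in every library, and MZT1 over TUBGCP6 went from 1.61 and 1.55 to 16.2 and 10.5.

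**Figure D2:**
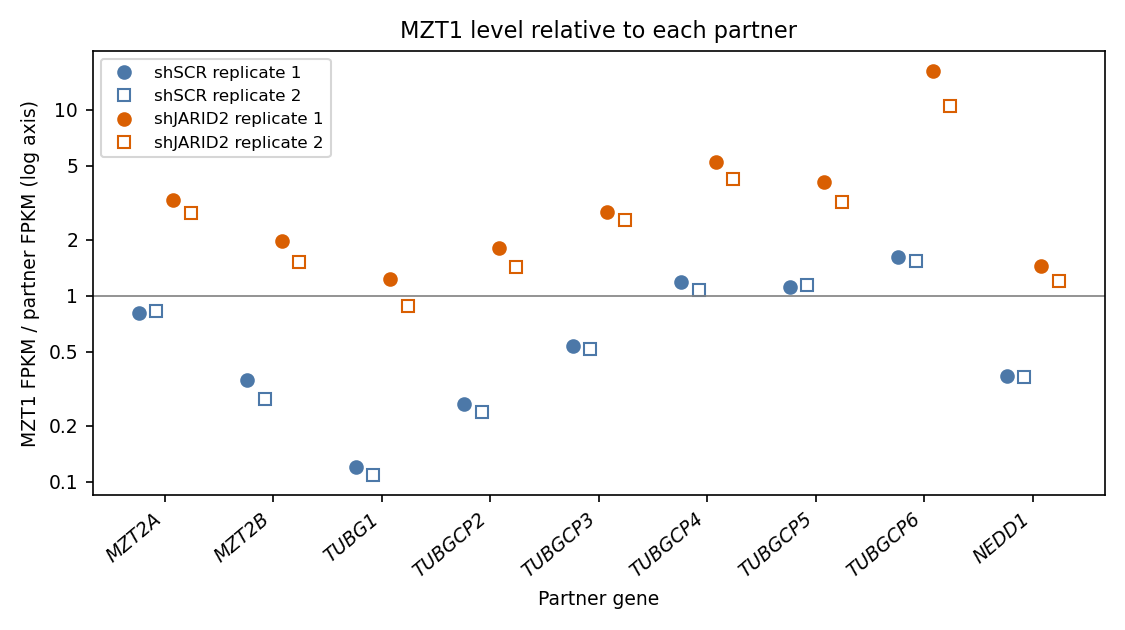
Ratio of MZT1 FPKM to the FPKM of each partner (log axis) in the 4 libraries, with shSCR in blue, shJARID2 in orange, circles for replicate 1, squares for replicate 2 and a line at a ratio of 1. For each of the 9 partners both shJARID2 ratios lie above both shSCR ratios, for TUBG1 at 0.878 and 1.23 against 0.108 and 0.120.

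The order of levels in shSCR was TUBG1, TUBGCP2, MZT2B, NEDD1, TUBGCP3, MZT2A and MZT1. TUBGCP4 and TUBGCP5, whose order differed between the replicates, and TUBGCP6 followed. This order depends on the annotated exon length by which FPKM are divided. In shSCR replicate 1 MZT2A and MZT2B had 546 and 558 reads over 4093 and 1815 exon bases. TUBGCP4 had 1018 reads over 11171 exon bases there, and MZT1 had 248 over 2299. TUBGCP4 and TUBGCP5, at means of 6.06 ± 0.253 and 6.05 ± 0.248 FPKM (SD, n = 2), did not differ beyond their spread in shSCR. In shJARID2 TUBG1 and MZT1, at 31.2 ± 2.23 and 32.6 ± 5.45, did not differ beyond theirs.

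Fold changes of all genes in this comparison followed the GC content of transcripts. Spearman's rho of log2 fold change and GC content was -0.67 across 12057 genes with a GC value. Across the 10 ring complex genes, which share the same 4 libraries, it was -0.72. These include MZT1, which chose the list by its rise and has the lowest GC content of them, so nothing is read from their rho. MZT1, at 32.0% GC, lies in the tenth of genes with the lowest GC content, where the median log2 fold change was 0.46 and 4 of 1206 genes had a larger log2 fold change than MZT1. NEDD1 (39.8% GC) and TUBGCP5 (43.0%) lie in the next groups of this size, with medians of 0.35 and 0.27. TUBG1 (57.8%), TUBGCP2 (59.1%) and TUBGCP6 (61.4%) lie in groups with medians of -0.40, -0.57 and -0.80. MZT2A (61.3%) and MZT2B (65.3%) share the last of these groups with TUBGCP6, yet measured 0.33 and -0.21.

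**Figure D3:**
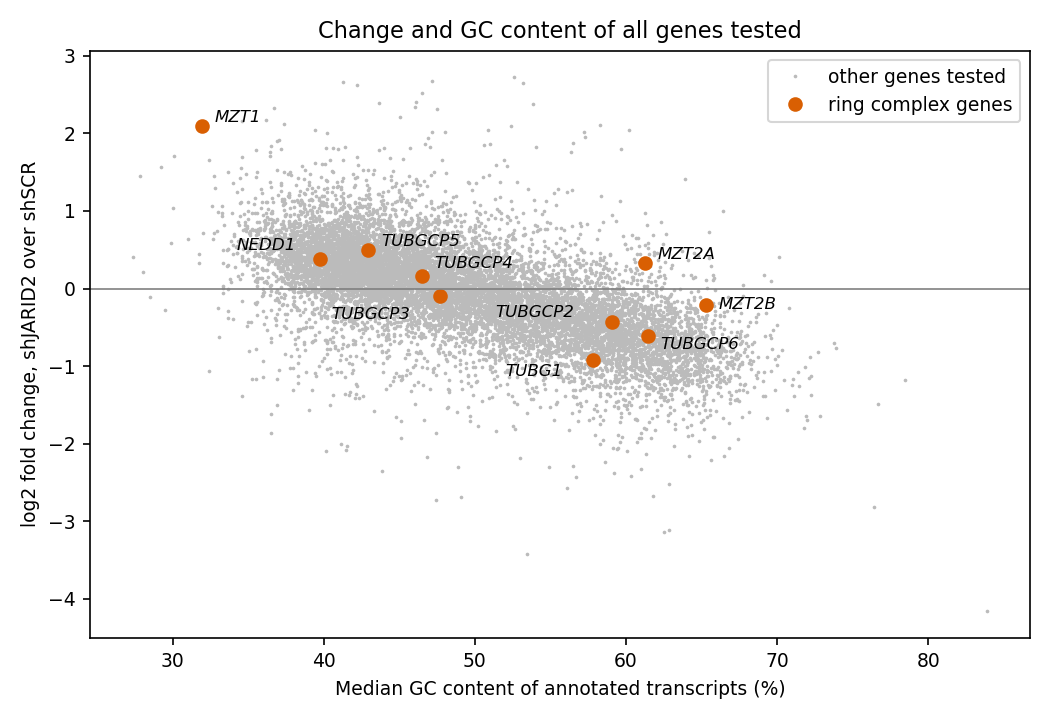
Log2 fold change of shJARID2 over shSCR against the median GC content of a gene's annotated transcripts (%), for the genes tested (grey) and the 10 ring complex genes (orange). MZT1 stands at 32.0% GC and 2.09, above nearly all genes of like GC content, while MZT2A and MZT2B lie above most genes near 61.3% and 65.3% GC.

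The GC trend was then subtracted in each library. MZT1 stayed the highest member at 1.48 (SE 0.069), place 65 of 12057 genes, and TUBG1 stayed lower at -0.43 (SE 0.042). MZT2A and MZT2B became 0.99 (SE 0.090) and 0.62 (SE 0.078), so that the 3 small MZT genes were the highest of the 10. The values of TUBGCP2 (0.13), TUBGCP3 (-0.17), TUBGCP4 (0.014), TUBGCP6 (0.061) and NEDD1 (0.023) did not pass the test, and TUBGCP5 was at 0.22. After the correction 4 members passed as higher (MZT1, MZT2A, MZT2B and TUBGCP5) and 1 as lower (TUBG1), beside 22.8% and 21.5% of all genes tested, 44.2% in all. As before, nothing is read from these counts, since MZT1 chose the list. The value of MZT1 against the partner median was then 1.43. The gene at that median was no longer TUBGCP3 in every library, so this value and the uncorrected 2.19 do not share a reference. TUBGCP5 lost its corrected call in the fit with a replicate block and without each of the 4 libraries in turn, and TUBGCP3 became a call without shJARID2 replicate 1 (-0.26).

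**Figure D4:**
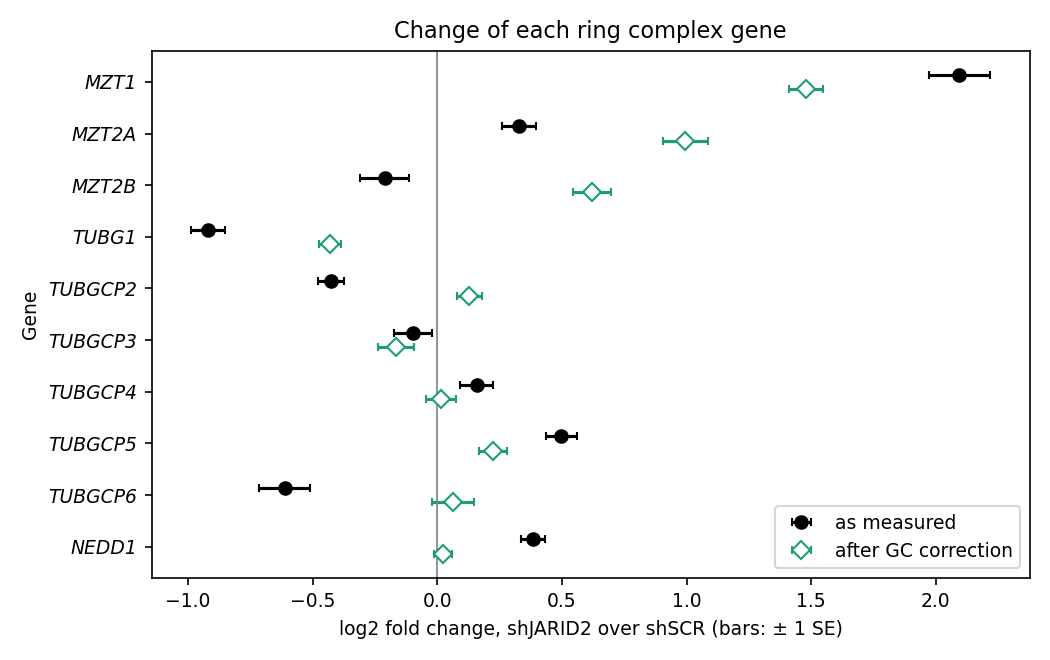
Log2 fold change of each ring complex gene with bars of 1 SE, as measured (black circles) and after GC correction (green diamonds). MZT1 is at 2.09 and 1.48 and TUBG1 at -0.92 and -0.43, while TUBGCP6 goes from -0.61 to 0.061 and NEDD1 from 0.39 to 0.023.

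The MZT genes are also the shortest members by coding length. The longest annotated coding sequences were 246 bases in MZT1, 474 in MZT2A and 654 in MZT2B, 1353 in TUBG1 and 2001 to 5457 in the GCP genes and NEDD1. MZT1 and MZT2A fall in the tenth of tested genes with the shortest coding sequences (52 to 579 bases), in which the median GC-corrected log2 fold change was 0.14 and 60.5% of genes were above 0. In the tenth with the longest, where TUBGCP6 lies, these values were -0.11 and 32.3%. Across 10448 genes Spearman's rho of the GC-corrected change and coding length was -0.19, and across the 10 members it was -0.40. Nothing is read from the latter, since the members include MZT1, which chose the list by its rise and is the shortest of them. The part of GC content and of coding length in the changes of these genes was not tested further.

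MZT1 stands head to head with BORA, which encodes an activator of the mitotic kinase Aurora A. In GENCODE release 29 the starts of both genes are 62 bases apart. The 61 bases between them, chr13:72727688-72727748 in RefSeq's GRCh38.p14, are shown on the strand of MZT1 because they are all that separates both starts.
MZT1 to BORA: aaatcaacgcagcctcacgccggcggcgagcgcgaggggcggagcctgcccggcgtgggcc
Its GC content is 77.0%. BORA measured 10.3 and 9.78 FPKM in shSCR against 13.97 and 14.01 in shJARID2, a log2 fold change of 0.44 (SE 0.054, with an adjusted p = 0.0037 from limma, Benjamini-Hochberg). After GC correction it was at 0.14 (adjusted p = 0.067, limma), where MZT1 was at 1.48. Of the exon bases of BORA, 37.0% are also in exons of other genes. BORA was looked up after the values of MZT1 were seen, as was RETREG3, which encodes a receptor for selective autophagy of the endoplasmic reticulum. RETREG3 starts 947 bases inside TUBG1 on the other strand and went from 15.8 and 17.1 to 10.9 and 11.3 FPKM (log2 fold change -0.52, GC-corrected -0.22, adjusted p = 0.0034 and 0.025, limma). No other member had a protein-coding gene on the other strand with its start within 1000 bases.

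Promoter windows of 300 bases were found in the RefSeq table (GRCh38.p14) for 9 of the 10 members. The motif CCAAT, searched on both strands, was found for 5 of them (MZT1, MZT2A, MZT2B, TUBG1 and TUBGCP5) and in 34.6% of all 35116 windows. A member counts here if any of its windows held the motif, whereas the percentages are shares of single windows, so they are not on the same footing. MZT1 alone of the 9 held TTTGAA (15.2% of all windows) and TTCGAA (1.45%), both letters of the cell cycle homology element known from promoters of mitotic genes. TTCGAA reads the same on both strands. None of the 3 motifs lies in the 61 bases above.

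The other genes of the pathway were described by 5 lists chosen by role. Over all genes tested the shares called and the median of -0.018 above serve as background, and adjusted p-values are from limma with Benjamini-Hochberg adjustment over all genes tested. The first list holds factors that recruit or anchor the ring, plus the gamma-tubulin paralog TUBG2 and ACTB (beta-actin), which is found inside the isolated ring. Of its 9 tested genes 1 rose and 4 fell, TUBG2 among the latter, with a median log2 fold change of -0.099. The lower calls numbered 2 without shSCR replicate 1, shSCR replicate 2 or shJARID2 replicate 1. PCNT (pericentrin), a large scaffold of the pericentriolar material, measured 12.2 and 12.2 FPKM in shSCR against 5.36 and 6.53 in shJARID2 (log2 fold change -0.93, adjusted p = 0.0027, limma). CEP192, a scaffold of centrosomes, rose by 0.27 and NINL, a ninein-like protein, fell by 0.40 on the log2 scale. After GC correction ACTB passed as higher (0.60) and 5 genes as lower (1 without either shSCR library, 3 without either shJARID2 library), PCNT stayed lower (-0.70), and the calls of TUBG2 (-0.16), CEP192 (-0.016) and NINL (0.0024) were lost. NINL also lost its call in the fit with a replicate block and without each library in turn, and CEP192 without shSCR replicate 2 (0.25).

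Augmin is the complex that recruits the ring to the sides of existing microtubules. Of 7 tested subunits 4 rose and 2 fell, with a median of 0.29. Without shSCR replicate 1, shSCR replicate 2 or shJARID2 replicate 2 the higher calls numbered 2, and without either shSCR library or shJARID2 replicate 1 the lower calls numbered 1. HAUS1 measured 22.0 and 21.3 FPKM in shSCR against 34.2 and 33.8 in shJARID2 (log2 fold change 0.63, adjusted p = 0.0014, limma), and HAUS6 went from 14.8 and 14.3 to 21.2 and 21.5 (0.52). Both have 3 pseudogene copies in the annotation. HAUS4 (-0.62), which shares 35.9% of its exon bases with exons of other genes, and HAUS5 (-0.41) fell. After GC correction 1 passed as higher (HAUS1, 0.34) and 1 as lower (HAUS4, -0.48, a call lost without shSCR replicate 1 or 2), while HAUS6 (0.10) and HAUS5 (0.14) did not pass. HAUS5 also lost its call without shSCR replicate 1 or 2 or shJARID2 replicate 1.

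Of 20 genes of centriole and centrosome assembly, 11 rose and 4 fell, with a median of 0.19. Without shSCR replicate 1 or 2 the higher calls numbered 6 and all 4 lower calls were lost, and without shJARID2 replicate 1 or 2 there were 7 and 8 higher and 1 and 2 lower calls. The centrins, small calcium-binding proteins of centrioles, rose most. CETN3 measured 2.99 and 2.47 FPKM in shSCR against 12.7 and 9.63 in shJARID2 (log2 fold change 1.70, adjusted p = 0.002, limma), and CETN2 went from 7.66 and 6.92 to 15.2 and 15.9 (0.998, adjusted p = 0.0014, limma). CEP120, which promotes centriole elongation, rose by 0.63 and PLK4, the kinase that starts centriole duplication, by 0.56. After GC correction 4 passed as higher and 5 as lower. The 4 were CETN3 (1.16), CETN2 (0.74), CEP120 (0.35) and PLK4 (0.19). The corrected call of PLK4 was lost without shSCR replicate 1, shSCR replicate 2 or shJARID2 replicate 1, and the corrected lower calls numbered 3 without each of these.

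The alpha- and beta-tubulins form the microtubule itself. Of 9 tested, 1 rose and 5 fell, with a median of -0.43. The higher call was lost without shSCR replicate 1, shSCR replicate 2 or shJARID2 replicate 1, and there were 2 higher calls without shJARID2 replicate 2. TUBB4B, the most abundant of those named here, measured 370 and 384 FPKM in shSCR against 213 and 226 in shJARID2 (log2 fold change -0.78, adjusted p = 0.0014, limma), and has 7 pseudogene copies. TUBA1C went from 80.6 and 85.3 to 36.7 and 38.2 (-1.13), TUBA1B from 111 and 123 to 80.7 and 84.9 (-0.49) and TUBA4A from 14.2 and 14.1 to 9.22 and 10.9 (-0.46). Exons of other genes cover 24.96%, 36.6% and 18.1% of the last 3 genes. TUBA1A, the 1 gene called higher, went from 55.1 and 59.2 to 71.1 and 64.8 (0.25, GC-corrected 0.46). Reads that match more than 1 tubulin gene may have been assigned to any of them, since the rule for them is not given. After GC correction 3 passed as higher and 3 as lower, TUBA1C (-1.0), TUBB4B (-0.20) and TUBA1B (-0.19) were still called lower, and TUBA4A (-0.037) lost its call, as it did without shSCR replicate 1 or 2. The corrected call of TUBB4B was lost without shSCR replicate 1 or 2, and that of TUBA1B without shSCR replicate 2, shJARID2 replicate 1 or shJARID2 replicate 2. The corrected lower calls numbered 1 without shSCR replicate 2 and 2 without each of the other libraries, and the 3 higher calls were lost without shSCR replicate 1 and numbered 1 without shSCR replicate 2.

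Of 19 tested genes of microtubule nucleation, growth and end binding, 8 rose and 7 fell, with a median of -0.032. The lower calls numbered 4 without shSCR replicate 1 or 2. PLK1, the mitotic kinase known to license recruitment of the ring to spindle poles, measured 38.3 and 39.6 FPKM in shSCR against 15.7 and 17.5 in shJARID2 (log2 fold change -1.18, adjusted p = 0.0014, limma). STMN1 (stathmin), which destabilises microtubules, went the other way, from 33.7 and 33.6 to 81.9 and 71.3 (1.16, adjusted p = 0.0014, limma). NUMA1, which focuses spindle poles, fell by 0.69 on the log2 scale, and CAMSAP2, which binds free minus ends, rose by 0.55. After GC correction 5 passed as higher (1 to 3 without each library in turn) and 6 as lower, with PLK1 at -0.73, STMN1 at 0.98 and NUMA1 at -0.39, and CAMSAP2 (0.12) lost its call.

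**Figure D5:**
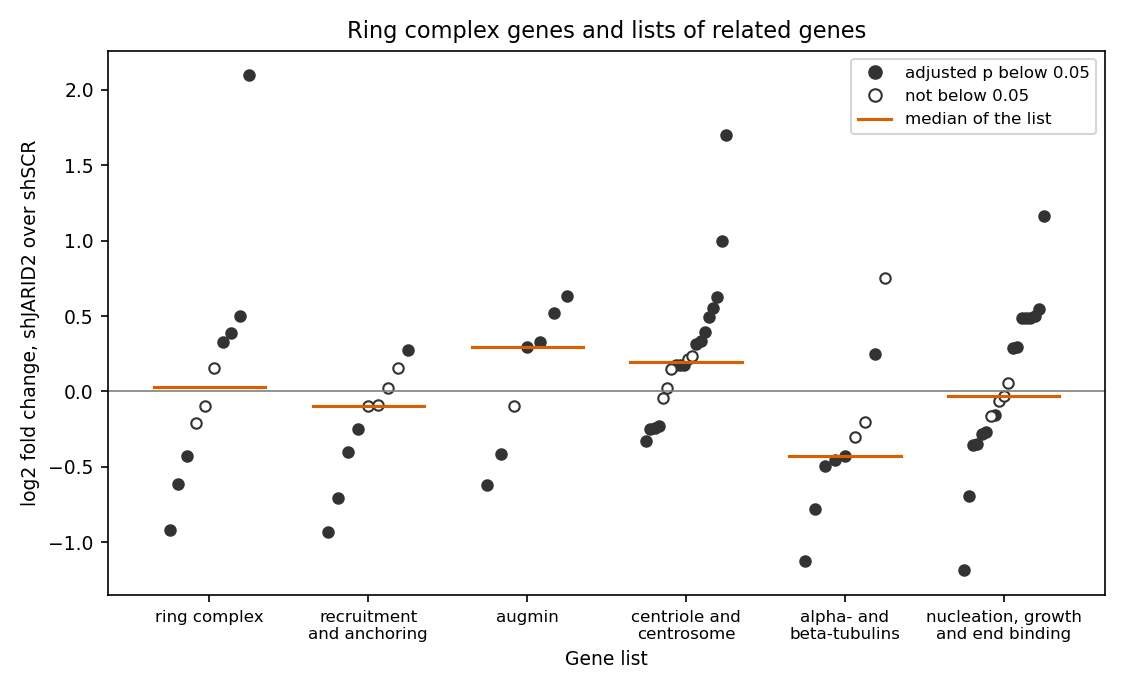
Log2 fold change, as measured, of each tested gene in the 10 ring complex genes and the 5 lists. As measured, MZT1 at 2.09 is the highest point of all, followed by CETN3 at 1.70, and PLK1 at -1.18 is the lowest.

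The genes outside the list whose pattern over the 4 libraries was nearest to that of MZT1 were BRK1, S100A6, CKS2, SNRPG and COPS9. Pseudogenes and genes with clone, locus or open reading frame names were left out of this search. Likeness was the Euclidean distance between log2(FPKM + 1) values centred on each gene's mean, and was 0.225 for BRK1, 0.273 for S100A6, 0.275 for CKS2, 0.308 for SNRPG and 0.313 for COPS9. BRK1, a small subunit of the WAVE complex that drives actin branching, went from 4.76 and 4.86 to 31.9 and 24.3 FPKM. CKS2, a small partner of cyclin-dependent kinases, went from 33.3 and 33.9 to 134 and 110. COPS9, a small subunit of the COP9 signalosome, went from 3.92 and 5.09 to 21.4 and 19.1. In all 5, as in MZT1, shJARID2 replicate 1 was above replicate 2, a feature that the distance itself uses. S100A6, which encodes a calcium-binding protein, was far higher in level, at 296 and 370 FPKM in shSCR against 1496 and 1252 in shJARID2. SNRPG, a core protein of spliceosomal particles with 20 pseudogene copies, went from 33.9 and 35.4 to 133 and 115. Their longest coding sequences are 225 bases in BRK1, 270 in S100A6, 237 in CKS2, 288 in SNRPG and 756 in COPS9, against 246 in MZT1. Unlike MZT1 (32.0%), BRK1, COPS9 and S100A6 have transcripts of 47.5%, 57.3% and 60.2% GC, and their GC-corrected log2 fold changes were 2.23, 2.42 and 2.66, against 1.48 for MZT1, 1.52 for CKS2 and 1.46 for SNRPG.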

How the data were processed

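RNA of 2 shSCR and 2 shJARID2 libraries was read from 1 table per library. The values are FPKM per gene as deposited by the authors, with a symbol in 25133 of 85553 rows (per the file headers). The rows without a symbol, which hold 21.1% to 24.5% of the summed FPKM, were left out. The submitters' processing notes name Trimmomatic, HISAT2, SAMtools and featureCounts. Not given in the sources used here: their settings, the build and annotation, and the use of strand and of reads with several matches.

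Whole reads were recovered from the FPKM steps and GENCODE release 29 exon lengths, and 95.8% to 96.3% of values of up to 20 reads lay within 0.05 of a whole number. The length of TUBGCP3 did not match, so its reads are not given.

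Rows with a mean of at least 1 FPKM (12455) were tested as log2(FPKM + 1) with limma 3.58.1 (R 4.3.3), group as the only term, a trended prior variance and Benjamini-Hochberg adjustment, called below 0.05. Residual degrees of freedom were 2 (prior 2.36). GC correction subtracted a loess fit (span 0.3, degree 2) of gene-centred values on transcript GC content in each library, for 12057 genes. The procedure was run on simulated data with few planted changes, which cannot tell how often its calls err on these data. Spearman coefficients are descriptions across genes, which are not independent replicates.

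Members and lists were chosen with earlier results of these data known. Named are all members, JARID2, TUBG2, TUBA1A and up to 4 called genes with the largest log2 change in each of the 5 lists. The 5 genes nearest to MZT1 are named as well, with pseudogenes and genes with clone, locus or open reading frame names left out. Promoter sequences are from RefSeq (GRCh38.p14) and coding sequences from GENCODE 29 (GRCh38). MZT1P1 and MZT1P2 were aligned with blastn. The closing section gives the effect of the other scalings, pseudocount, filters, limma-voom, replicate block, GC correction and omitted libraries.

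Replicates were no copies of one library: the chi-square of their reads, divided by its degrees of freedom, was 3.17 for the shSCR pair and 3.66 for the shJARID2 pair. Counting error and library spread are both covered only by 2 libraries a group.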

Additional observations from a re-analysis of the deposited data

How the results depend on the processing

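MZT1 was higher in shJARID2 under every setting run, which is a description only, since it was chosen for that rise in the same libraries. MZT1 was at 1.93 to 2.26 without each library in turn, 2.28 with limma-voom on recovered reads and 1.48 after GC correction. Against the partner median, which was TUBGCP3 in the main setting, it was at 2.19. It was 2.33 with a pseudocount of 0.1, 2.35 with limma-voom and 2.11 to 2.27 without each library. With GC correction it was 1.43, with or without the replicate block. With GC correction without each library, a combination chosen after seeing the data, it was 1.30 to 1.58. The gene at the partner median also changed with GC correction. GC correction turned the sign of MZT2B (0.62), TUBGCP2 (0.13) and TUBGCP6 (0.061), the same with the replicate block, and without each library they were 0.53 to 0.72, 0.081 to 0.17 and 0.0060 to 0.12. TUBGCP4 was then -0.025 without shSCR replicate 1 and -0.0016 without shJARID2 replicate 1. With limma-voom TUBGCP4 passed as higher (0.21). Uncorrected, without each library, the lowest value of MZT2B was -0.34, of TUBGCP2 -0.47 and of TUBGCP6 -0.71, and the highest of TUBGCP4 was 0.19. The cause was not tested.

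Members called lower numbered 1 with GC correction, with or without the block (1 to 2 without each library), and 2 to 3 without each library uncorrected. Members called higher numbered 4 with GC correction and 3 with the block added. Nothing is read from these counts of members, since MZT1 chose the list. For background, all genes tested numbered 12455 without GC correction and 12057 with it. In the 5 lists 25 genes were higher and 22 lower. GC correction gave 14 higher, 12 with the block, and 7 to 11 higher and 10 to 15 lower without each library, against 14 to 21 and 11 to 18 uncorrected. Of all genes, 2743 were higher and 2588 lower with GC correction, and 2498 were higher and 2336 lower with the block added. Without each library 2168 to 3068 were higher and 2462 to 3763 lower, the lowest of each without shSCR replicate 2, and with GC correction 1331 to 2321 and 1054 to 2262. An arm left with 1 library was assumed to vary like the other.

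No shift shared by libraries of the same replicate number was seen: the differences between replicates 2 and 1 correlated across genes at 0.029 between the groups. Whether the libraries were paired is not in the labels, and this value cannot tell. The replicate block alone gave 3380 genes higher and 3831 lower, 4 and 3 members, and 21 and 21 list genes. No scaling moved the median of all genes by 0.1 or more on the log2 scale. With 2 libraries a group, small differences such as that of TUBGCP3 were not detectable.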
